A study of Mus musculus with 8 samples.

Results

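The 10 genes described here encode 6 S100 proteins (S100g, S100a1, S100a6, S100a10, S100a11 and S100a13) and 4 annexins (Anxa2, Anxa4, Anxa5 and Anxa6). Both are families of calcium-binding proteins, although S100A10 has lost calcium binding. The 10 genes were selected by symbol in both experiments. S100g was chosen because it was higher in KLF3-GFP-positive and in KLF3-overexpressing cells than in their controls. All 10 were listed, among 13056 protein-coding genes in sorted cells and 14319 in overexpressing cells. In the first experiment, KLF3-GFP-positive and KLF3-GFP-negative mouse embryonic stem cells (mESCs) were sorted at 500 cells per sample and sequenced by Smart-seq2, an amplification protocol for small numbers of cells. The sorted line was expanded from picked colonies and carried a transgene in which the N-terminal part of KLF3, lacking its DNA-binding domain, was fused to GFP under the CAGGS promoter, with DsRed under EF1α. In the second, KLF3 (KLF3-OE-72h) or GFP (GFP-OE-72h) was induced by doxycycline for 72 hours in separate clones of R26 mESCs. These have a reverse tetracycline transactivator at Rosa26, and their poly(A) RNA was sequenced. The paper reports no detectable protein from the native Klf3 sequence in mESCs, and a trace amount from a codon-optimized one. All groups came from a C57BL/6(F) x 129/sv(M) background, were grown in serum with leukaemia inhibitory factor, and had 2 samples each. Clone and induced protein cannot be told apart in the second experiment.

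S100 proteins are small dimers built from EF-hands, helix-loop-helix units that hold calcium, and they act mostly by docking onto partner proteins. Annexins carry a different calcium site and use it to attach to acidic phospholipids on the inner face of membranes. Both families meet where an S100 dimer joins annexin molecules, as in the S100A10 and annexin A2 complex at the plasma membrane. In the early embryo, S100g and several annexins are known from the extraembryonic endoderm and other polarized epithelia.

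Each condition was deposited as 1 column of FPKM (fragments scaled to the length of the transcript and to all mapped fragments of the library), the authors' mean of 2 samples. The spread between samples and the depth are therefore unknown, no test can be run, and a difference is a description of these means. Differences are given on the log2(FPKM + 1) scale as the KLF3 condition minus its control, which understates changes of low genes, and a gene was called upregulated or downregulated beyond a 2-fold change on this scale if its mean over both columns was at least 1 FPKM. All 10 genes passed that minimum in both experiments. The lowest value of either table was 0.1 FPKM. All 12 pluripotency markers examined were above the lowest value in every column, which does not establish the labelled cell type. Pou5f1 had 114.6 and 59.4 FPKM in KLF3-GFP-negative and KLF3-GFP-positive cells. In GFP-OE-72h and KLF3-OE-72h cells it had 883 and 990 FPKM. Of the 12 markers, 9 were downregulated in KLF3-GFP-positive and 2 in KLF3-OE-72h cells.

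In KLF3-GFP-positive cells, 8 of the 10 genes were upregulated and 2, S100a6 and Anxa6, were downregulated. Among all 9212 genes tested, 13.8% were upregulated and 8.32% downregulated, 22.1% in either direction. In KLF3-OE-72h cells, 5 of the 10 genes (S100g, S100a6, S100a10, Anxa2 and Anxa5) were upregulated and 0 were downregulated, against 6.6% and 10.1% of 11179 genes tested (16.7% in either direction). The median difference of the 10 genes was 2.86 in sorted cells, where the median over all genes was 0.03, and 1.01 on overexpression, where it was -0.18. These shares describe genes selected with results known.

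**Figure D1:**
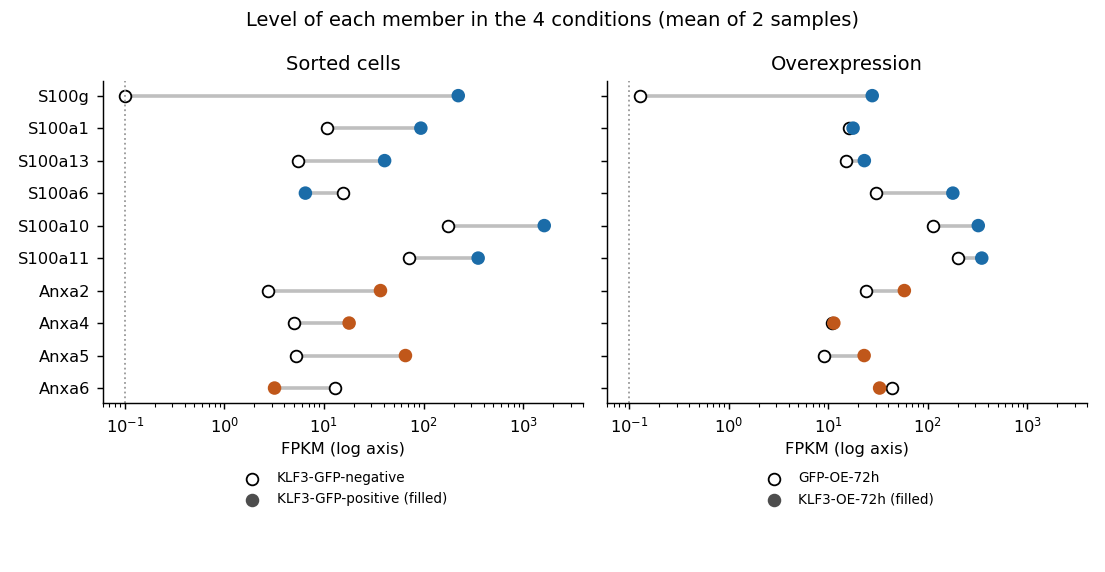
FPKM (log axis) of the 10 genes in KLF3-GFP-negative (open) and KLF3-GFP-positive (filled) cells on the left and in GFP-OE-72h (open) and KLF3-OE-72h (filled) cells on the right; blue marks S100 genes, orange annexins, and the dotted line the lowest value of 0.1. The filled point is on the right for 8 genes in sorted cells and for 9 on overexpression, and S100a6 changes sides.

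S100g encodes calbindin-D9k, a calcium buffer of absorptive epithelia and a target of vitamin D in the intestine. It stood at the lowest value, 0.1 FPKM, in KLF3-GFP-negative cells, and KLF3-GFP-positive cells had 223 FPKM. In GFP-OE-72h cells it had 0.13 FPKM and in KLF3-OE-72h cells 27.6 FPKM. Both controls were thus at or next to the lowest value of the table. The differences of 7.67 and 4.66 on the log2(FPKM + 1) scale ranked 3 of 9212 and 2 of 11179 from the top. S100g was selected for these differences, so the ranks only describe that selection. The plain ratio in sorted cells was at least 2231-fold. The gene covers chrX:162961992-162964599 on the minus strand of mm10, inside the locus of Ctps2, which encodes a CTP synthase and is read from the plus strand. Smart-seq2 does not mark strand, whereas the overexpression libraries came from a directional kit. Cufflinks by default takes libraries as unstranded, and reads that fall where genes overlap may not be told apart without strand. Ctps2 itself had 19.1 and 17.6 FPKM in sorted cells and 27.5 and 23.6 FPKM on overexpression. It was lower in KLF3-GFP-positive and KLF3-OE-72h cells than in their controls. Syap1, the other listed gene within 100 kb, was within 2-fold in sorted cells and downregulated on overexpression (10.3 to 2.97 FPKM). Over chromosome X, 59 of 287 tested genes were upregulated (20.6%) and 30 downregulated in sorted cells, against 13.8% and 8.32% of all genes tested. On overexpression 29 of 361 were upregulated (8.03%) and 50 downregulated, against 6.6% and 10.1% of all genes, so the upregulated share was near that of all genes. Of 4 tested genes of chromosome Y, 3 were downregulated and 1 was upregulated on overexpression. In sorted cells 0 of 4 were called. The relation of these sex chromosome values to the value of S100g was not tested.

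The sequence before the start site of S100g is shown because this gene has the largest difference of the set. KLF proteins bind CACCC boxes, so the capitals mark CACCC or its reverse complement GGGTG. The 250 bases (RefSeq, GRCm38.p6, the assembly of mm10; chrX:162964600-162964849, minus strand, written 5′ to 3′) overlap no annotated exon, lie in an intron of Ctps2, hold 1 match, 21 to 17 bases before the start, and have a GC content of 38.4%.

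S100g: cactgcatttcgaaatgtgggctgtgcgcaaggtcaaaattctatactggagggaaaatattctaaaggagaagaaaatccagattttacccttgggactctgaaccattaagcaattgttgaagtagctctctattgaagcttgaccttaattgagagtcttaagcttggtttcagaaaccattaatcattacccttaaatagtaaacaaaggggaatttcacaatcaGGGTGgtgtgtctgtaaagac

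The genes nearest to S100g in the plane of both differences, among 8887 genes tested in both experiments, were Lgals2 at a Euclidean distance of 0.68, Spink1 (1.05), Glipr1 (1.34), Srgn (1.78) and Cited1 (2.198). Likeness here rests on 4 columns and on the differences for which S100g was selected. Lgals2, a galectin, shared the value of 0.1 FPKM in KLF3-GFP-negative cells and reached 256 FPKM in the positive ones, with 2.73 and 59.1 FPKM on overexpression. Cited1, a transcriptional coregulator that is also X-linked, had 1.02 and 123 FPKM in sorted cells and 1.80 and 26.8 FPKM on overexpression.

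S100a1 and S100a13 lie head to head in the S100 cluster of chromosome 3, at chr3:90511034-90514392 on the minus strand and chr3:90514435-90524581 on the plus strand. S100A1 is known as a regulator of calcium cycling in striated muscle, and S100A13 takes part in the export of FGF1 from cells. S100a1 had 10.6 FPKM in the negative and 93.9 FPKM in the positive sorted population, an 8.85-fold higher value. S100a13 had 5.44 and 40.7 FPKM, 7.47-fold higher. The pair thus had similar ratios in sorted cells, with differences of 3.03 and 2.69. On overexpression neither passed 2-fold, with 16.01 and 17.7 FPKM of S100a1 and 15.2 and 23.0 FPKM of S100a13. Their ratio to each other was 1.95 and 2.31 in the sorted populations and 1.05 and 0.77 in GFP-OE-72h and KLF3-OE-72h cells.

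S100a10 and S100a11 lie 28.8 kb apart on the same chromosome (chr3:93555080-93564643 and chr3:93520488-93526287, both plus strand) and were the most abundant of the 10 genes by FPKM, a level per length, in all 4 columns. S100A10, which has lost calcium binding in its EF-hands, holds annexin A2 at the plasma membrane and presents plasminogen at the cell surface. In the negative population S100a10 had 176 FPKM, against 1628 FPKM in the positive one, 9.25-fold higher, and moved from rank 661 to rank 104 of all listed genes by level. On overexpression it had 111 and 320.5 FPKM, a difference of 1.52. S100A11, a partner of annexins A1 and A2, had 71.5 and 353 FPKM in sorted cells (2.29). In GFP-OE-72h and KLF3-OE-72h cells it had 202 and 347 FPKM, a difference of 0.78 that did not pass 2-fold. S100a10 thus exceeded S100a11 in both sorted populations and was below it in both overexpressing populations. Line and library protocol differ between the experiments, and this change of order was not tested. Together S100a10 and S100a11 made up 248 of the 279 FPKM of the 6 S100 genes in KLF3-GFP-negative cells and 1982 of 2346 FPKM with KLF3-GFP.

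S100a6 was the gene with opposite directions. S100A6 (calcyclin) is a growth-associated S100 protein that binds CACYBP and annexins. In KLF3-GFP-negative cells it had 15.5 FPKM, and KLF3-GFP-positive cells had 6.51 FPKM, 2.38-fold lower in plain FPKM with a difference of -1.14. In GFP-OE-72h cells it had 30.1 FPKM and in KLF3-OE-72h cells 178 FPKM, 5.93-fold higher with a difference of 2.53. Its difference ranked 29 of 11179 from the top on overexpression and 601 of 9212 from the bottom in sorted cells. Of 8887 genes tested in both, 66 were downregulated in sorted cells and upregulated on overexpression, and S100a6 was the 1 member among them. Cacybp, which encodes its binding partner, was within 2-fold in both, with 395 and 221 FPKM in sorted cells and 208 and 219 FPKM on overexpression.

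The 238 bases before the locus of S100a6 (chr3:90612644-90612881, plus strand) are given because its directions were opposite. They hold 0 CACCC matches, and 1 match to the longer KLF pattern CCNCNCCC (CCCCTCCC), which the capitals do not mark. This match lies 126 to 119 bases before the RefSeq start, which is downstream of the end of the stretch shown.

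S100a6: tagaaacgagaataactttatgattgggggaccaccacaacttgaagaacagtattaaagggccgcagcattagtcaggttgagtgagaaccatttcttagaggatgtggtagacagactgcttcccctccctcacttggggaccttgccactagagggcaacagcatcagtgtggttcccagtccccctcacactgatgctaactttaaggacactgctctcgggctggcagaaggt

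**Figure D2:**
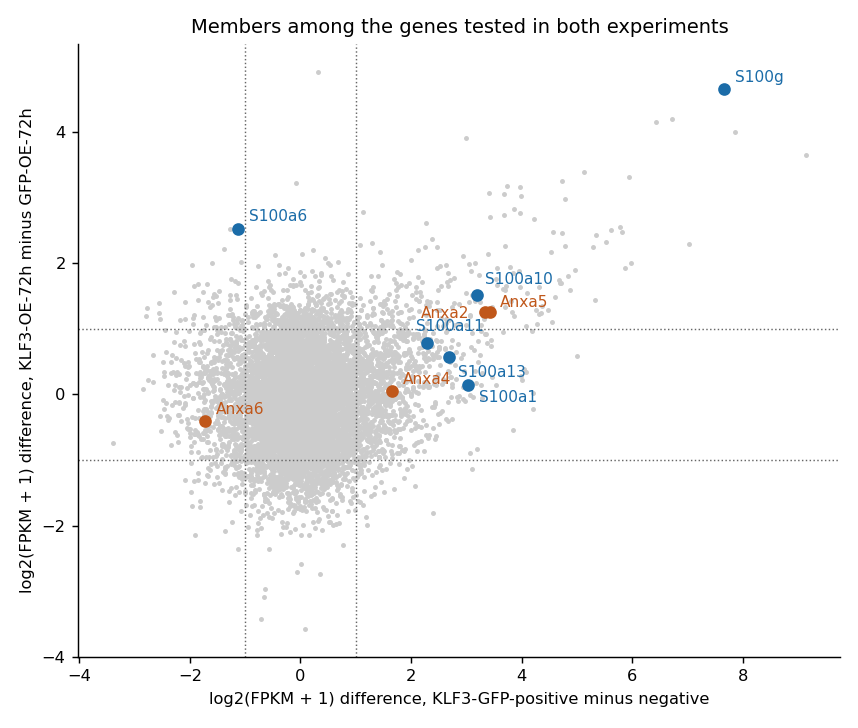
Difference in log2(FPKM + 1) between KLF3-GFP-positive and negative cells (x) against that between KLF3-OE-72h and GFP-OE-72h cells (y) for the 8887 genes tested in both (grey), with S100 genes in blue, annexins in orange and 2-fold limits dotted. S100g lies at the upper right, S100a10, Anxa2 and Anxa5 together beyond both limits, and S100a6 alone of the members at the upper left.

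Genes of the S100 cluster differed in direction. S100a3, which lies between S100a13 and S100a6, was called upregulated in sorted cells from 0.19 to 2.58 FPKM, a level that barely passed the minimum, and did not reach the minimum on overexpression. S100a16 had 5.41 and 2.66 FPKM in sorted cells and 3.48 and 4.29 FPKM on overexpression, within 2-fold each time on the log2(FPKM + 1) scale. In plain FPKM it was 2.03-fold lower in KLF3-GFP-positive cells. S100a4, a gene of motile and mesenchymal cells, was listed only on overexpression, with 1.06 and 2.98 FPKM (0.95), 2.81-fold higher in plain FPKM. S100a14 stayed below the minimum in both tables, and S100a2 stood at the lowest value in both columns of the overexpression table. The genes that flank the cluster on the side of S100a1 (Chtop, Snapin, Ilf2, Npr1 and Ints3) were within 2-fold in sorted cells, and on overexpression only Snapin was called, downregulated from 27.3 to 10.8 FPKM. Outside the cluster, S100z had 13.7 and 2.09 FPKM in sorted cells, downregulated by 2.25 on the log2 scale, and 1.69 and 2.29 FPKM on overexpression.

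**Figure D3:**
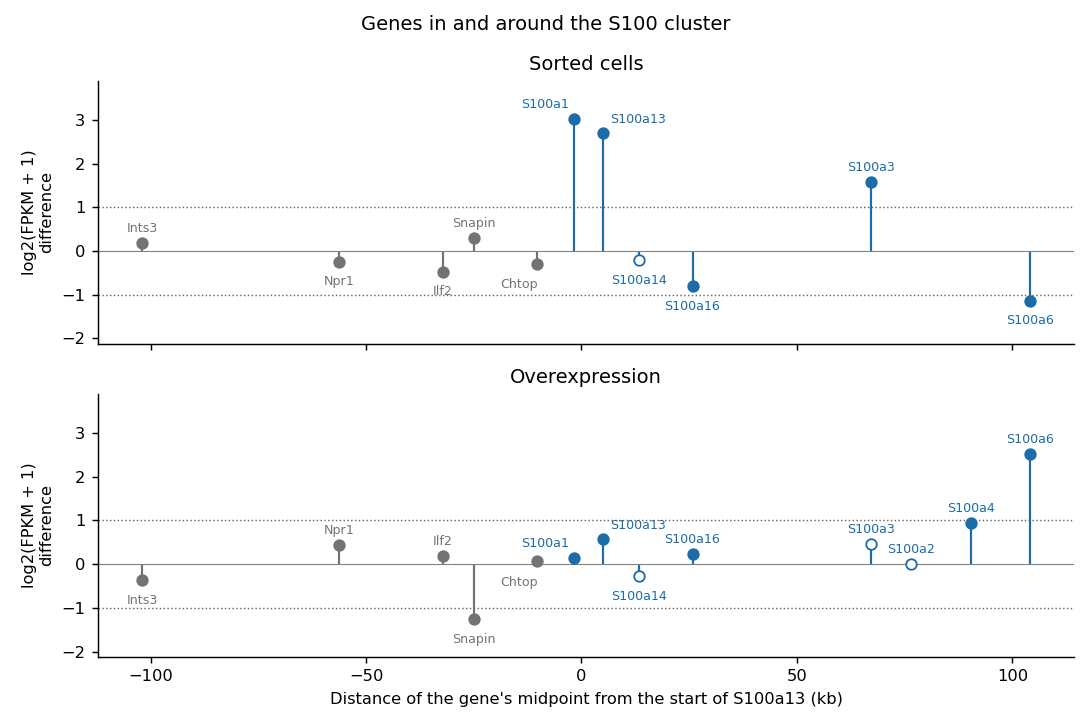
Difference in log2(FPKM + 1) in sorted (top) and overexpressing cells (bottom) for genes within 100 kb of S100a1, S100a13 or S100a6, placed by the distance of their midpoint from the start of S100a13 in kb; S100 genes are blue, open points lie under 1 FPKM, and dotted lines mark 2-fold. S100a1 and S100a13 stand out at the top panel's centre and S100a6 at the bottom panel's right end.

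Of the annexins, Anxa2 and Anxa5 were upregulated in both experiments by close amounts. Annexin A2 organizes actin-rich membrane domains and binds S100A10. Anxa2 (chr9:69453620-69491795, plus strand) went from 2.73 FPKM in negative to 36.9 FPKM in positive sorted cells, 13.5-fold higher. The antisense gene Gm16144 lies inside it, with the same limit on strand as for S100g. On overexpression it had 23.8 and 58.0 FPKM, 2.44-fold higher. Its level per length was below that of S100a10 in every column, by 64.5-fold in KLF3-GFP-negative, 44.1-fold in KLF3-GFP-positive, 4.68-fold in GFP-OE-72h and 5.52-fold in KLF3-OE-72h cells. Annexin A5, the protein used to stain phosphatidylserine on dying cells, forms lattices on membranes. Anxa5 (chr3:36448923-36475894, minus strand) had 5.24 and 65.8 FPKM in sorted cells, 12.6-fold higher, and 9.0 and 22.9 FPKM on overexpression, 2.55-fold higher. The differences of these annexins were 3.35 and 3.42 in sorted cells and 1.25 and 1.26 on overexpression.

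The 187 bases before Anxa2 (chr9:69453433-69453619, plus strand), which stop where its locus begins in the tables, are shown because its window had 4 CACCC matches, 3 of them in this stretch.

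Anxa2: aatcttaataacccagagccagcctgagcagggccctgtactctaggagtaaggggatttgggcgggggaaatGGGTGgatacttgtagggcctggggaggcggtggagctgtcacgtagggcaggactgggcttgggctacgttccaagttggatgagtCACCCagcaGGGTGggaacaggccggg

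RefSeq windows from 250 bases before to 50 after a start were found for 8 of the 10 genes, 9 windows in all, since Anxa4 has 2 starts; S100a10 and Anxa6 had none. CACCC or GGGTG was present in 7 of the 9 windows and in 57.5% of 32817 windows of the genome. At least 4 matches were found in those of S100a1 and Anxa2 and in 3.1% of all windows. The longer KLF pattern CCNCNCCC, in which N is any base and which overlaps CACCC where its last letters spell it, was present on either strand in 5 of the 9 windows and in 49.5% of all windows. The windows of S100a1 and S100a13 overlap and share matches. These shares are descriptions and give no evidence of binding.

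Anxa4 and Anxa6 were not upregulated on overexpression. Anxa4, an annexin of secretory epithelia, covers chr6:86736840-86793584 on the minus strand. It had 5.0 and 17.9 FPKM in sorted cells, upregulated 3.58-fold, and 10.9 and 11.4 FPKM on overexpression. Annexin A6 is the large annexin with a duplicated core and acts in endosomal and cholesterol trafficking. Anxa6 (chr11:54979108-55033445, minus strand) went from 12.9 FPKM in negative to 3.19 FPKM in positive sorted cells, 4.03-fold lower, and 43.9 and 32.8 FPKM on overexpression, 1.34-fold lower. In plain FPKM it was lower in KLF3-GFP-positive and KLF3-OE-72h cells than in their controls, past 2-fold in sorted cells alone. Its difference on overexpression turned from -0.41 to 0.06 with the trend with genomic span removed, and the difference between the experiments was not tested. The ratio of Anxa5 to Anxa6 was 0.41 in KLF3-GFP-negative, 20.6 in KLF3-GFP-positive, 0.20 in GFP-OE-72h and 0.70 in KLF3-OE-72h cells. Within 100 kb of Anxa6, Gpx3, which encodes a secreted glutathione peroxidase, was upregulated in both experiments, with differences of 2.12 and 1.78, and Gm2a was downregulated on overexpression from 10.8 to 4.02 FPKM.

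Other annexins were listed as well. Anxa3 was upregulated in both, with 6.67 and 38.8 FPKM in sorted cells, 4.08 and 25.4 FPKM on overexpression, and differences of 2.38 each. Anxa1, an anti-inflammatory annexin that was listed on overexpression alone, went from 2.27 to 5.81 FPKM (1.06). Anxa11, an annexin of RNA granules and secretion, was downregulated on overexpression from 19.9 to 4.22 FPKM. Anxa7 stayed within 2-fold in both, Anxa8 was within 2-fold on overexpression and under the minimum in sorted cells, and Anxa9 and Anxa10 did not reach the minimum where listed. In the whole family, 4 of 6 annexins tested were upregulated and 1 downregulated in sorted cells, and 4 of 9 and 1 on overexpression. For S100 genes the numbers were 6 upregulated and 2 downregulated of 9 in sorted cells, and 3 and 0 of 9 on overexpression. Under the alternatives of processing given below, 3 or 4 S100 genes were upregulated on overexpression. In sorted cells 5 or 6 were upregulated and 2 or 3 downregulated. Over all genes tested, 13.8% were upregulated and 8.32% downregulated in sorted cells, and 6.6% and 10.1% on overexpression. The share of downregulated annexins on overexpression was near that of all genes. Both families include the members, which were selected with results known.

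Summed over the 6 S100 genes, the 279 FPKM without and 2346 FPKM with KLF3-GFP were 0.0309% and 0.248% of the FPKM of all listed genes. Without S100g the sum was 7.61-fold higher in KLF3-GFP-positive cells. On overexpression the sums were 375 and 914 FPKM, or 0.0613% and 0.110%. The 4 annexins summed to 25.8 and 124 FPKM in sorted cells and to 87.7 and 125 FPKM on overexpression, where their share was 0.0143% in GFP-OE-72h and 0.0150% in KLF3-OE-72h cells. All FPKM summed to 612621 and 834882 there, so that the share of the annexins moved less than their sum.

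Differences on overexpression went with gene size across the whole table, and the S100 genes are shorter than the annexin genes. The shortest group of 5 equal groups by genomic span, up to 7.41 kb, had a median difference of 0.35 with 16.4% of its genes upregulated, and the longest, from 60.5 kb, had -0.49 with 2.42% upregulated. S100a1, which spans 3.36 kb, was below the median of its group on overexpression (0.14 against 0.35), and S100g at 2.61 kb was 4.31 above it. S100a6 and S100a10, with 11.3 and 9.56 kb, belong to the second group, with a median of -0.01 and 7.11% upregulated. Anxa2 belongs to the fourth group, with a median of -0.44 and 3.04% upregulated, and was 1.69 above that median. Anxa6, also in the fourth group, was 0.03 above it. In sorted cells the group medians ran from -0.03 to 0.12. With a smooth trend of the difference with span removed, the same 5 genes were upregulated on overexpression.

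**Figure D4:**
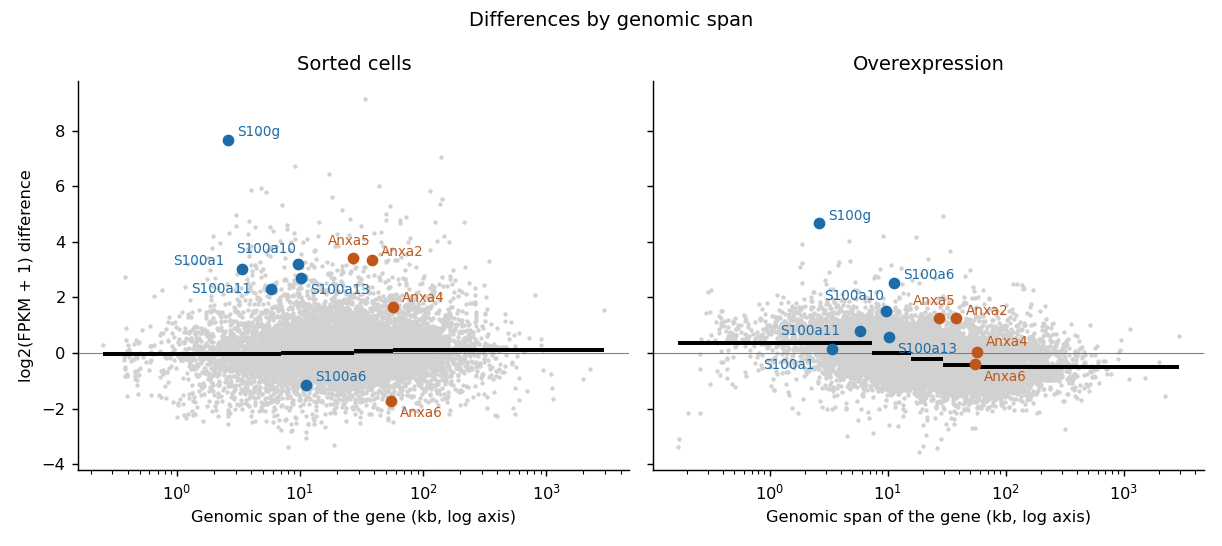
Difference in log2(FPKM + 1) against genomic span in kb (log axis) for all genes tested (grey) in sorted cells (left) and on overexpression (right), with S100 genes in blue, annexins in orange and black bars for the medians of 5 groups of equal size. The bars fall from 0.35 to -0.49 on the right, while S100a6, S100a10, Anxa2 and Anxa5 lie above the bar of their group in that panel.

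Genes that work with the S100 proteins and annexins were examined with lists chosen by function. Of 16 tested partners, 7 were upregulated in sorted cells and 0 downregulated, and on overexpression 1 of 19 was upregulated and 1 downregulated. Over all genes tested, 13.8% were upregulated and 8.32% downregulated in sorted cells and 6.6% and 10.1% on overexpression, so the share of upregulated partners on overexpression was near that of all genes. Under the alternatives the latter counts ranged from 1 to 3 upregulated and from 0 to 3 downregulated. Plaur, the urokinase receptor of the plasminogen system, was the 1 partner upregulated in both, with 8.41 and 121 FPKM in sorted cells and 9.55 and 25.6 FPKM on overexpression. Ahnak, a giant scaffold that binds the S100A10 and annexin A2 complex, had 6.26 and 29.5 FPKM in sorted cells and 3.12 and 4.89 FPKM on overexpression. Pdcd6ip (ALIX), a membrane-repair and ESCRT adaptor, had 2.93 and 14.1 FPKM in sorted cells and a difference of 0.06 on overexpression. Atp2a2, the calcium pump of the endoplasmic reticulum, was within 2-fold in sorted cells and downregulated on overexpression, from 50.7 to 24.5 FPKM (-1.02). Capn2, a calcium-dependent protease, was upregulated in sorted cells (1.94) and had 0.90 on overexpression. The membrane-repair gene Dysf had 0.98 on overexpression.

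Calbindin-D9k is known from the transport of calcium across gut cells. Of the 15 genes of this transcellular route, 3 were listed in sorted cells and 8 on overexpression, and 2 passed the minimum in each table. Trpv5 and Trpv6, the entry channels, were in neither table. The calcium exporter Atp2b1 was upregulated in sorted cells from 4.41 to 11.9 FPKM, and Atp2b4 from the lowest value to 2.30 FPKM. On overexpression Atp2b1 had 5.95 and 3.19 FPKM, and Vdr, the vitamin D receptor, had 0.17 and 0.27 FPKM, under the minimum. Calb2, an EF-hand buffer, had 2.32 and 2.15 FPKM there.

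Among other EF-hand genes, 9 of 24 tested were upregulated and 1 downregulated in sorted cells, and 2 of 26 and 1 on overexpression, with medians of 0.61 and -0.03. All genes tested had medians of 0.03 and -0.18, with 13.8% upregulated in sorted cells and 6.6% on overexpression, the latter share being near that of the EF-hand genes. Sparc, a secreted calcium-binding protein of basement membranes, was upregulated in both, from 33.5 to 981 FPKM and from 138 to 484 FPKM. Rcn3, a calcium-binding protein of the secretory pathway, had 31.4 and 184 FPKM in sorted cells and 65.0 and 108 FPKM on overexpression. Calu, its relative, was upregulated in sorted cells by 2.23 and had -0.87 on overexpression. Cib1 was upregulated on overexpression from 40.1 to 83.8 FPKM, and Stim1, the calcium sensor of the endoplasmic reticulum, was downregulated there from 4.07 to 0.96 FPKM.

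**Figure D5:**
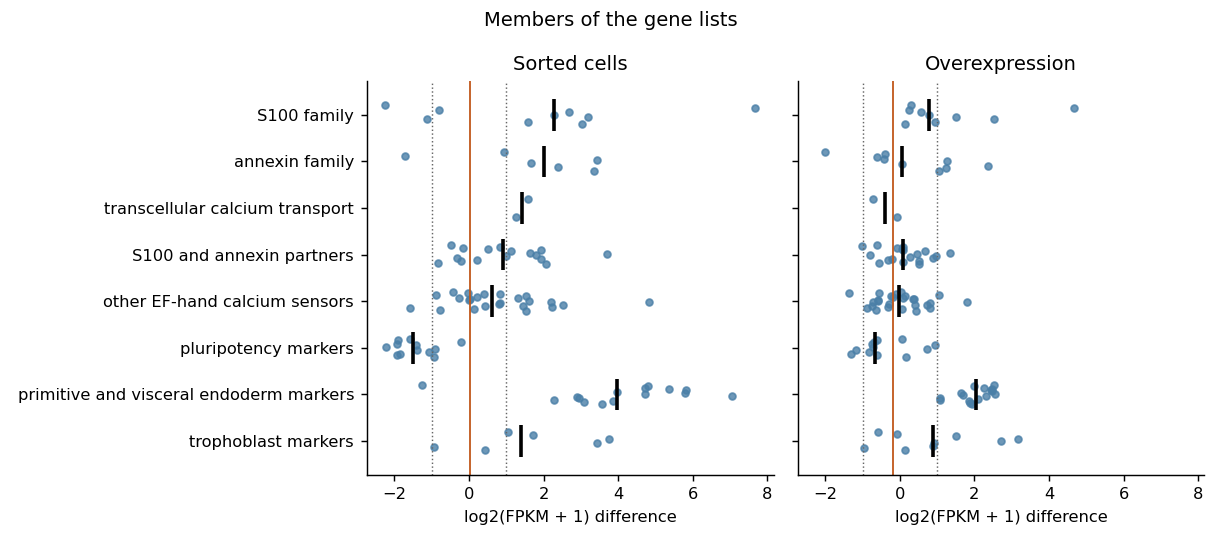
Difference in log2(FPKM + 1) of each tested gene (points) of 8 lists in sorted cells (left) and on overexpression (right), with the list median as a black bar, the median of all genes tested as an orange line and 2-fold limits dotted. The S100 and annexin medians are 2.29 and 2.02 on the left and 0.78 and 0.05 on the right, and the endoderm list has 3.98 and 2.05.

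Markers of cell types were examined in the same columns. Over all genes tested, 13.8% were upregulated and 8.32% downregulated in sorted cells, and 6.6% and 10.1% on overexpression. Of 18 markers of primitive and visceral endoderm, 14 of 15 tested were upregulated and Apoa1 was downregulated in sorted cells, and all 16 tested were upregulated on overexpression. The 14 were Gata4, Gata6, Sox17, Sox7, Foxa2, Pdgfra, Dab2, Cubn, Amn, Lrp2, Col4a1, Col4a2, Lama1 and Lamb1, and each was upregulated in both experiments. The summed level of the list was 18.6 FPKM without and 909 FPKM with KLF3-GFP, and 70.3 and 394 FPKM in GFP-OE-72h and KLF3-OE-72h cells. Dab2, Col4a1 and Amn had the largest differences of the list in sorted cells (7.04, 5.81 and 5.78), and Amn, Apoa1 and Col4a1 on overexpression (2.55, 2.53 and 2.48). In KLF3-GFP-negative cells Foxa2, Cubn, Ttr and Hnf4a stood at the lowest value. Of 12 trophoblast markers, Krt8 and Krt18, keratins that endoderm also expresses, were upregulated in both experiments, whereas Cdx2 had at most 0.60 FPKM in any column. The whole list had 4 of 6 tested genes upregulated in sorted cells, Plet1 and Tead4 included, and 3 of 9 on overexpression, Hand1 included. Its sum went from 39.3 to 407 FPKM and from 119 to 565 FPKM, mostly through these keratins. Krt8 and Krt18 had 206 and 183 FPKM in KLF3-GFP-positive and 176 and 340 FPKM in KLF3-OE-72h cells. Of the tested genes, 1 was lower in sorted cells, Tfap2c (2.40 to 0.77 FPKM). On overexpression 3 were lower, Tfap2c included (26.2 to 13.1 FPKM). Fibroblast and feeder markers summed to 1.27 and 0.71 FPKM in sorted cells and to 4.99 and 6.07 FPKM on overexpression, with 0 of 4 listed and 2 of 6 listed (Loxl1 at 0.33 and Thy1 at 0.15 on the log2 scale) above the minimum. Pluripotency markers were downregulated in 9 of 12 cases in sorted cells and in 2 of 12 on overexpression, with Nanog and Esrrb downregulated in both. On overexpression, where 10.1% of all genes were downregulated, 8 of the 12 markers were lower and 4 higher. The largest differences of this list in sorted cells were those of Tdgf1 (-2.22), Fgf4 (-1.92) and Sox2 (-1.92), and on overexpression those of Nanog (-1.30), Esrrb (-1.18) and Utf1 (0.95). In such bulk samples, more cells of a type and more RNA per cell cannot be told apart, and the part of these cell types in the values of the 10 genes was not tested.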

How the data were processed

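RNA-seq of 8 mESC samples in 4 groups of 2 was analysed. The authors aligned reads to mm10 with STAR (version 2.6.0 in the submitters' processing notes; the methods of the paper name another) with GENCODE as guide, computed FPKM with Cufflinks (version 2.2.1), and deposited FPKM as 1 mean of 2 samples per group, in 2 tables of protein-coding genes whose values have 2 decimals and none below 0.1. No column was left unassigned. Depth is unknown, so no interval is given, and averaged, rounded values do not show what 1 read is worth.

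Differences of log2(FPKM + 1) were computed within each table with Python (3.11.15), pandas (2.3.3) and statsmodels (0.14.6), where the mean of both columns reached 1 FPKM, and calls were made above 2-fold or below 0.5-fold. The limma test across genes that was planned for replicate columns, and the P value limit of the paper, could not be applied to means. Of an identifier with several rows, the row with the highest mean was kept. Starts in the tables count from 0 and are printed counting from 1. Strands came from GENCODE M21 (99.8% of identifiers found), and promoter windows from RefSeq (GRCm38.p6). Programs were run with defaults unless the authors annotated otherwise, and the default of Cufflinks is unstranded; no strand setting is named, although the overexpression libraries were directional.

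The members and lists were chosen with earlier results of these data known. Named are all members, other listed S100 and annexin genes, the 3 largest differences per list and genes called in both experiments, neighbours within 100 kb past 2-fold, and the 5 genes nearest to S100g. Genes outside this rule are named for their function and were chosen after their values were seen. The 7 alternatives used a pseudocount of 0.1, no pseudocount with 0.1 as floor, no minimum, a minimum mean of 5 FPKM, median-ratio scaling, quantile normalization, and removal of a lowess trend with genomic span (fraction 0.3). The scripts were tested on simulated data.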

Additional observations from a re-analysis of the deposited data

How the results depend on the processing

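Under the 7 alternatives, all 10 genes kept their call in both experiments (140 of 140 values). The nearest to a limit were S100a11 on overexpression, 0.99 with median-ratio scaling, and S100a10, 1.11 with quantile normalization. The sign changed for 2 uncalled values, both on overexpression with the trend with genomic span removed: Anxa6 from -0.41 to 0.06 and S100a1 from 0.14 to -0.25. The size of S100g depended on the pseudocount because its controls are at or near 0.1 FPKM: without one it was 11.1 in sorted cells and 7.73 on overexpression. On overexpression, median-ratio scaling moved the median of all genes from -0.18 to 0.00 and the calls from 738 upregulated and 1133 downregulated to 1187 and 719. Downregulated genes there numbered from 588 (trend removed) to 1912 (floor of 0.1), and in sorted cells a mean of at least 5 FPKM left 840 upregulated and 417 downregulated genes. Of 84 counts in the other calcium lists, 18 moved by over 1.5 times, the partner list on overexpression ranging from 1 to 3 upregulated and from 0 to 3 downregulated genes.

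No paired analysis was possible because each condition was deposited as 1 mean, and leaving out a replicate was not run for the same reason. Without replicate values no difference can be set against its error, and values near 0.1 FPKM give the least certain ratios.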
